A study of Homo sapiens with 8 samples.

Results

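The plasminogen system and the tissue factor pathway were followed through 9 genes: the plasminogen activators PLAU and PLAT, the receptor PLAUR, the serpins SERPINE2, SERPINB2 and SERPINB5, the clotting initiator F3 (tissue factor) and its inhibitors TFPI and TFPI2. They were taken as the probes whose gene name in the scanner tables is a member, which gave 11 of the 41000 probes of the array. The cells were CAL-27, an established human head and neck squamous carcinoma line. They were starved of serum for 24 h. Treated cells were given the compound that the labels call Go (n = 2 arrays, dose not given) or enzastaurin at 10 µM (n = 3 arrays) for 24 h. The other cells served as control (n = 3 arrays). All 3 groups share the serum starvation, and the labels name no vehicle for the control. They also give no time in culture after starvation for the control, so that time may differ from the treated groups. The series title presents both compounds as inhibitors of protein kinase C, and since the dose of Go is not stated, the compounds cannot be set side by side at matched doses. The labels do not say whether arrays of a group came from separate cultures, so the p-values describe the spread of these arrays alone, which may be technical.

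Plasminogen is a circulating zymogen that urokinase (PLAU) and tissue-type activator (PLAT) cleave to plasmin, a broad protease that dissolves fibrin and degrades matrix. Urokinase works while bound to its receptor PLAUR on the cell surface, and serpins trap the activators by acting as suicide substrates. Tissue factor, a membrane receptor for factor VII, starts coagulation, and Kunitz-type inhibitors switch it off. Squamous carcinoma cells are known to make urokinase and its receptor at their invasive edge. Several of these genes, PLAU, PLAUR, SERPINB2 and F3 among them, are known targets of phorbol esters, which activate protein kinase C, in part through AP-1 sites in their regulatory DNA.

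The promoters of 3 members are shown, those of the phorbol ester targets just named whose windows hold AP-1 letters. Each line gives the 250 bases before the gene's annotated start, 5′ to 3′ on the gene's strand, from RefSeq on GRCh38.p14, with matches to AP-1 (TGANTCA) and EGR1 (GCGNGGGCG, on either strand) in capitals. The windows are chr1:94541760-94542009 on the minus strand for F3, chr18:63887455-63887704 on the plus strand for SERPINB2, and chr19:43670170-43670419 on the minus strand for PLAUR.
F3: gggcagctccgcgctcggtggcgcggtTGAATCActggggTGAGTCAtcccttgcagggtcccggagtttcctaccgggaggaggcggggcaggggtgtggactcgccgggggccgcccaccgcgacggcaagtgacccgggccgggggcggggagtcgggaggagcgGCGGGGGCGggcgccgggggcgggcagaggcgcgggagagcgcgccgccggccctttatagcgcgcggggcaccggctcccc
SERPINB2: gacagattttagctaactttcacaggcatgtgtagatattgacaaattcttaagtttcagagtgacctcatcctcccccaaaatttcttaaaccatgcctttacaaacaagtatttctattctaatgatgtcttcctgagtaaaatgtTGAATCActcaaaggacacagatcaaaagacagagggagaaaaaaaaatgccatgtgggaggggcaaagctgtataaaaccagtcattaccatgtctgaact
PLAUR: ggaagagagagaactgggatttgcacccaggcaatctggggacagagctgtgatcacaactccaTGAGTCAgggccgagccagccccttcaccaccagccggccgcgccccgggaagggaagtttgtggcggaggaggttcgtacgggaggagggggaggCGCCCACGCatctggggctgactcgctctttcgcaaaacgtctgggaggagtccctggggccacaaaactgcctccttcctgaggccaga

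The F3 window holds a pair of AP-1 matches, at 223 to 217 and 210 to 204 bases before the start. SERPINB2 has 1 match at 102 to 96 bases before the start, and PLAUR has 1 at 186 to 180. For 8 members 10 windows were given, since PLAU and SERPINE2 have a pair of starts each. AP-1 letters occurred in 5 of the 10 windows, those of PLAUR, SERPINB2, SERPINB5, F3 and TFPI2, against 6.57% of all 35116 promoter windows of that length. The full cAMP response element (TGACGTCA) occurred in none of the members' windows and in 1.65% of all. A GC box (GGGCGG) was present in 6 of the 10 windows and in 42.6% of all, and an EGR1 match in 3 of the 10 (PLAUR, F3 and TFPI2) and in 8.41% of all. Both strands were searched, and in F3 and TFPI2 the EGR1 match overlaps a GC box. These matches describe letters, not occupied sites, and no motif was compared with the array values by a test.

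Each array held 45220 spots, and 52.1% to 57.3% of its probes lay above background, taken as a signal-to-noise score over 3. Median foreground intensities were 72 to 93. Tests covered the 12909 genes above background on at least 2 arrays. Of the 9 members, 7 were above background on all 8 arrays, and TFPI and TFPI2 were not above background on any. Markers of squamous epithelium fitted the label, since all 9 keratinocyte markers on the array, KRT5, KRT14 and TP63 among them, were above background on every array. Markers of other cell types gave a mixed picture. Of the 6 leukocyte markers PTPRC and LYZ were above background on no array, while CD3E, CD68, HLA-DRA and CD14 were above it on all 8. Of the 5 endothelial markers PECAM1, KDR and TEK were above background on no array, CDH5 on 2 and VWF on all 8. Of the 6 fibroblast markers COL1A1 was above background on all 8 arrays, LUM on 7, DCN on 2, COL1A2 and COL3A1 on 1 each and PDGFRB on none. The summed signal was 127.5 to 157.5 in Go, 151.5 to 215 in enzastaurin and 86.5 to 128.5 in control for the fibroblast markers, and 66.5 to 155 in Go, 102.5 to 113 in enzastaurin and 98.5 to 111.5 in control for the endothelial markers. The summed signal of the 6 leukocyte markers was 1183.5 to 1306.5 in Go, 1834 to 2105.5 in enzastaurin and 739 to 929 in control. HLA-DRA was the brightest of the 6, at log2 signals of 9.25 to 10.51. All these sums are of the deposited signal, which is not normalised between arrays. The sum of the 9 keratinocyte markers was 57827 to 59063 in Go, 67534 to 89245 in enzastaurin and 48238 to 60411 in control. The part of the markers of other cell types in the results was not tested. By their spot positions, Go 1 shared a slide with the 3 controls, and Go 2 shared another slide with the 3 enzastaurin arrays. Enzastaurin and control thus have no slide in common, and values with the slide as a block are given below where that changes a call of a member.

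**Figure D1:**
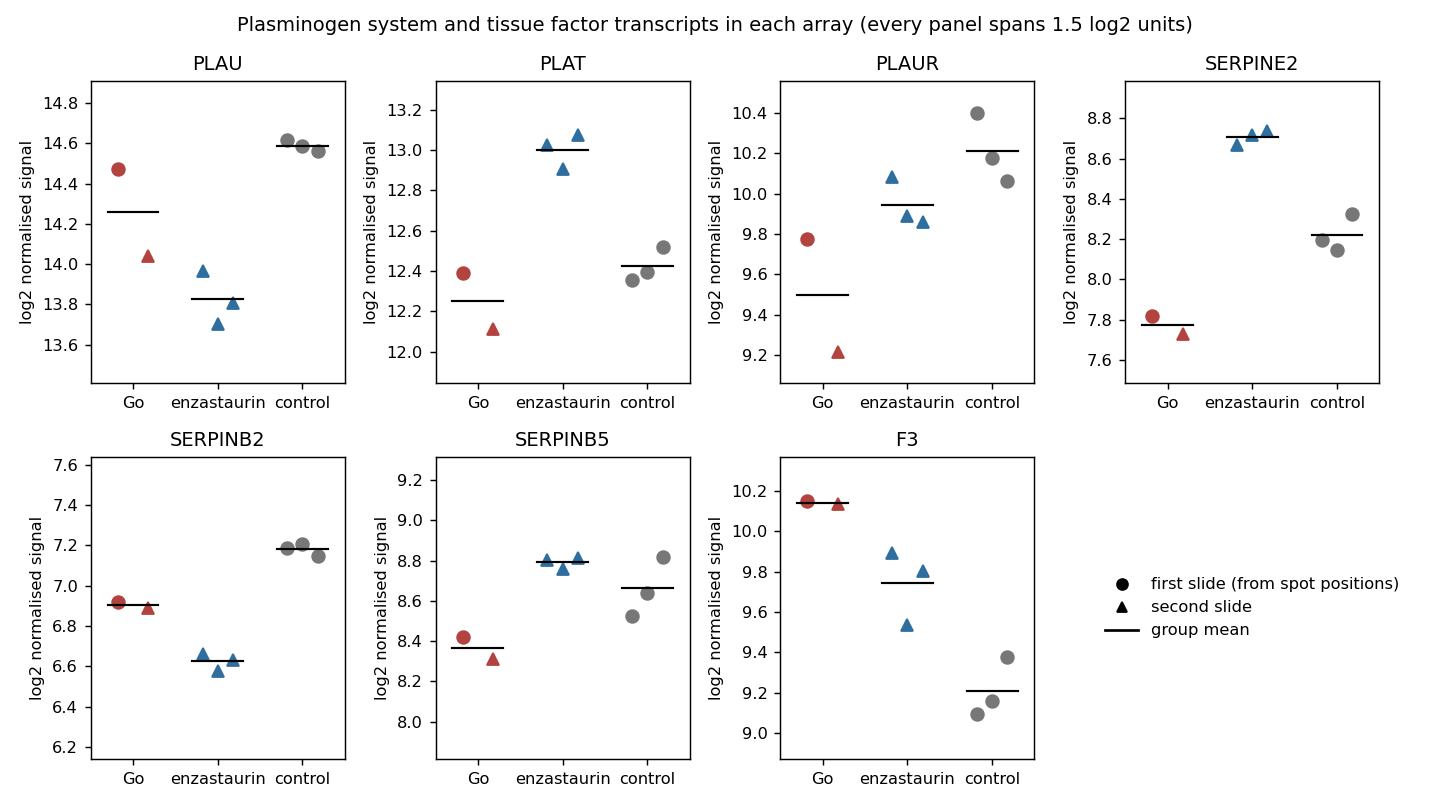
Log2 normalised signal (y axis) of the 7 members above background, 1 panel a gene, in the Go (n = 2), enzastaurin (n = 3) and control (n = 3) arrays. Points are arrays (circles first slide, triangles second slide, as inferred from spot positions), lines are group means, and every panel spans 1.5 log2 units. The F3 values of both Go arrays, 10.15 and 10.14, lie above all others, and the SERPINE2 values of the 3 groups do not overlap.

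The urokinase gene PLAU (probe A_23_P24104, 10 spots on each array) had log2 normalised signals of 14.47 and 14.04 in Go, 13.97, 13.70 and 13.81 in enzastaurin, and 14.62, 14.59 and 14.56 in control. The controls lay close together (SD 0.027) and above every treated array, with the enzastaurin arrays lowest. The Go arrays differed by more, Go 2 lying 0.43 below Go 1. Before normalisation between arrays the groups overlapped: the authors' deposited signal was 17299 to 27117 in Go, 17406 to 20151 in enzastaurin and 18302 to 26360 in control.

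The urokinase receptor gene PLAUR (A_23_P16469) had log2 signals of 9.78 and 9.22 in Go, 10.08, 9.89 and 9.86 in enzastaurin, and 10.40, 10.18 and 10.06 in control. Both Go arrays were below all others, while enzastaurin and control overlapped. Its span over the 8 arrays, 1.19 log2 units, was the widest among the 7 members and stood at the 90.1 percentile of all genes tested. Before normalisation between arrays Go overlapped control, with deposited signals of 520 to 938 in Go, 991 to 1220 in enzastaurin and 801 to 1075 in control.

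PLAT, the gene of tissue-type activator (A_23_P82868, 10 spots), had log2 signals of 12.39 and 12.11 in Go, 13.03, 12.91 and 13.07 in enzastaurin, and 12.36, 12.39 and 12.52 in control. The enzastaurin arrays stood apart above the rest, and Go and control overlapped. The deposited signal, without normalisation, also set enzastaurin above the rest, at 4442 to 6538 in Go, 10152 to 12056 in enzastaurin and 4700 to 6697 in control.

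**Figure D2:**
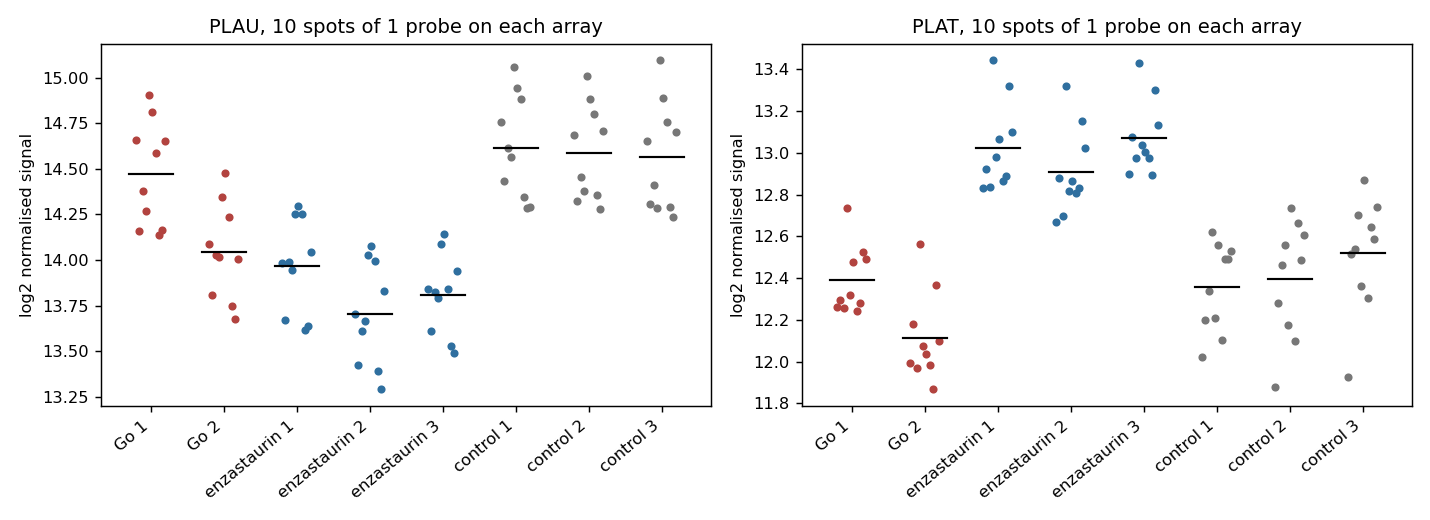
Log2 normalised signal (y axis) of each of the 10 spots that carry the PLAU probe and the PLAT probe, by array (x axis), with the mean of the spots as a line. The SD between spots of an array was 0.219 to 0.298 for PLAU and 0.163 to 0.277 for PLAT, and the PLAT spots of the 3 enzastaurin arrays are centred above those of the other 5 arrays.

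The spots of an array repeat a measurement and are not replicates of a condition. In the plot of the 10 spots per array the median SD between spots was 0.271 for PLAU and 0.209 for PLAT. The other members rested on 1 spot a probe.

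SERPINE2 encodes protease nexin-1, an inhibitor of thrombin, urokinase and plasmin. Its probe (A_23_P50919) had log2 signals of 7.82 and 7.73 in Go, 8.67, 8.72 and 8.74 in enzastaurin, and 8.20, 8.14 and 8.33 in control. The order was Go below control below enzastaurin, with no overlap between any pair of groups. The SD within a group was at most 0.0937, in control.

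SERPINB2 encodes PAI-2, a mostly intracellular inhibitor of urokinase. Its probe (A_24_P245379) had log2 signals of 6.92 and 6.89 in Go, 6.66, 6.58 and 6.63 in enzastaurin, and 7.19, 7.21 and 7.15 in control. Control was highest, Go intermediate and enzastaurin lowest, again with no overlap. The signal was low, at 58 to 65 in Go, 36 to 44 in enzastaurin and 62 to 75 in control in the deposited values, where Go and control overlapped. The signal-to-noise score was as low as 4.3 on enzastaurin 1.

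SERPINB5 encodes maspin, a serpin of squamous and glandular epithelia that does not inhibit proteases in the classical way. Its brighter probe (A_23_P208126) had log2 signals of 8.42 and 8.31 in Go, 8.80, 8.76 and 8.81 in enzastaurin, and 8.53, 8.64 and 8.82 in control. Go was below both other groups, and enzastaurin overlapped control. In the deposited signal Go overlapped control, at 235 to 317 in Go, 385 to 519 in enzastaurin and 243 to 369 in control. The second probe (A_24_P212086) placed the groups in the same order, with means of 6.59 ± 0.059 in Go (SD, n = 2), 6.91 ± 0.0288 in enzastaurin (SD, n = 3) and 6.75 ± 0.0673 in control (SD, n = 3).

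F3 (A_23_P126782) had log2 signals of 10.15 and 10.14 in Go, 9.89, 9.53 and 9.80 in enzastaurin, and 9.09, 9.16 and 9.38 in control. Go was above enzastaurin and enzastaurin above control, with no overlap. The deposited signals kept that order, at 1036 to 1179 in Go, 905 to 1019 in enzastaurin and 376 to 608 in control. The inhibitors of tissue factor were at the limit of the arrays. One TFPI probe (A_23_P17095) had deposited signals of 9 to 22 in Go, 14 to 17 in enzastaurin and 15 to 17 in control, and a signal-to-noise score of at most 2.625, on Go 2. The other TFPI probe (A_23_P330070) had 0.5 to 13 in Go, 3 to 6 in enzastaurin and 6 to 8 in control. TFPI2 (A_23_P393620) had 0.5 to 4 in Go, 0.5 to 4 in enzastaurin and 2 to 4 in control. No difference of TFPI or TFPI2 between groups was detectable at these signals. Neither entered the tests below, and neither was called when the filter on dim probes was left out.

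The comparison of Go with control asks which members moved with that inhibitor. F3 rose and was 1.91-fold higher in Go, with log2 means of 10.14 ± 0.00908 (SD, n = 2) and 9.21 ± 0.149 in control (SD, n = 3). PLAUR, SERPINE2, SERPINB2 and SERPINB5 fell. PLAU and PLAT did not pass the threshold, an adjusted p of 0.05. Of the 7 members tested, 5 were called (1 higher and 4 lower), against 31.7% of all genes tested (11.6% higher, 20.1% lower). The median of the 7 was -0.30 on the log2 scale, and -0.10 over all genes. The groups did not overlap for 6 of the 7, against 57.4% of all genes.

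The log2 difference of F3 was 0.93 (SE 0.125, limma adjusted p = 0.00476). PLAUR showed the widest of the 4 falls, with a log2 difference of -0.72 (SE 0.168, limma adjusted p = 0.0181). SERPINE2 differed by -0.45 (SE 0.0839, adjusted p = 0.0107) and SERPINB2 by -0.28 (SE 0.0732, adjusted p = 0.0246). SERPINB5 differed by -0.30 (SE 0.098) and passed narrowly, at an adjusted p of 0.0484. The log2 difference of PLAU was -0.33 (95% interval -0.63 to -0.03, adjusted p = 0.0803), and that of PLAT was -0.17 (95% interval -0.41 to 0.07, adjusted p = 0.228).

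Of the 5 calls, the one of F3 alone remained with the slide as a block, where Go 1 is set against the controls of its own slide (log2 difference 0.94, adjusted p = 0.0176). This fit rests on the same contrast as leaving out Go 2, and under both the adjusted p was 0.102 for PLAUR, 0.0543 for SERPINE2, 0.103 for SERPINB2 and 0.208 for SERPINB5. Leaving out control 1 or control 2 also ended the calls of PLAUR (adjusted p = 0.0514 and 0.0573) and SERPINB2 (0.054 and 0.0826). The SERPINB5 call was lost in 15 of 18 alternatives, among them leaving out Go 1 (adjusted p = 0.0509), any enzastaurin array (0.076 to 0.0826), control 2 (0.107) or control 3 (0.0684). With the authors' value table in place of the scanner tables, SERPINB2 (adjusted p = 0.0911) and SERPINB5 (0.0688) did not pass, and without normalisation between arrays F3 alone did (log2 difference 1.2). PLAU, in contrast, was called with arrays scaled to the 75th percentile (log2 difference -0.38, adjusted p = 0.0442). It was also called with the replicate number of the labels as a block (-0.34, adjusted p = 0.0487), and without Go 1 its difference was -0.55.

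**Figure D3:**
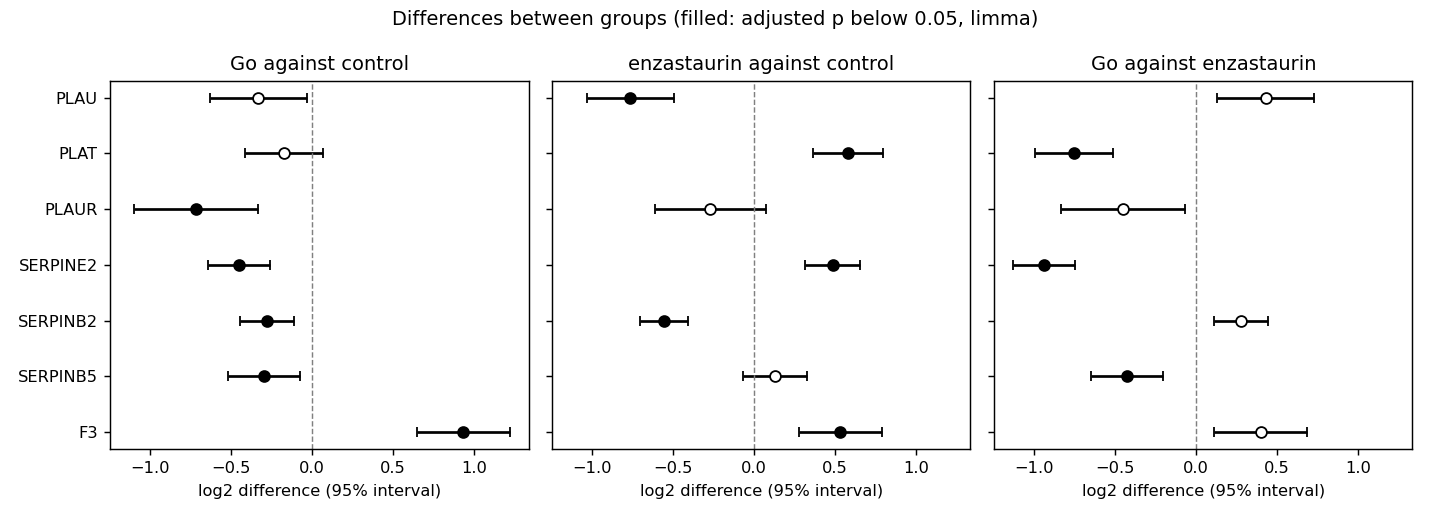
Log2 difference with its 95% interval (x axis) for each of the 7 members tested, in the 3 comparisons. Filled points passed an adjusted p of 0.05 in limma. F3 lies right of 0 against control for both compounds (0.93 for Go, 0.53 for enzastaurin), and SERPINE2 lies on opposite sides (-0.45 for Go, 0.49 for enzastaurin).

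The comparison of enzastaurin with control asks the same of the second compound, and it shares its control arrays with the comparison above. PLAT, SERPINE2 and F3 rose, PLAU and SERPINB2 fell, and PLAUR and SERPINB5 did not pass. The 5 calls among 7 members (3 higher, 2 lower) stand against 55% of all genes tested (18.1% higher, 36.8% lower). The median of the 7 was 0.13, and -0.14 over all genes. The groups did not overlap for 5 of the 7, against 68.9% of all genes.

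PLAT was 1.49-fold higher in enzastaurin than in control (n = 3 arrays each), a log2 difference of 0.58 (SE 0.0947, limma adjusted p = 0.00151). SERPINE2 was higher by 0.49 (SE 0.075, adjusted p = 0.0012) and F3 by 0.53 (SE 0.112, adjusted p = 0.00442). PLAU was 1.70-fold lower, with a log2 difference of -0.76 (SE 0.117, adjusted p = 0.00119). SERPINB2 had a log2 difference of -0.56 (SE 0.0655, adjusted p = 0.000469). PLAUR differed by -0.27 (95% interval -0.61 to 0.07, adjusted p = 0.155) and SERPINB5 by 0.13 (95% interval -0.07 to 0.33, adjusted p = 0.231).

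With the slide as a block, which ties the groups together only through the 2 Go arrays, the call of PLAT remained (0.85, adjusted p = 0.0277). The calls of SERPINE2 (adjusted p = 0.0637), SERPINB2 (0.0574), F3 (0.17) and PLAU (0.222) ended, and the difference of PLAUR turned to 0.29 (0.383). The PLAU call also ended without normalisation between arrays, with a log2 difference of -0.20 (adjusted p = 0.406). That setting widened the differences of PLAT to 1.02, SERPINE2 to 0.92, F3 to 0.99 and SERPINB5 to 0.55 (which was then called, adjusted p = 0.0265), where the median of all genes was 0.24. SERPINB5 was also called without control 3 (0.21, adjusted p = 0.0462), and PLAUR with the replicate number as a block (-0.27, adjusted p = 0.0486).

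Setting Go against enzastaurin asks whether the inhibitors act differently on these genes. SERPINE2 was 1.91-fold lower in Go and PLAT 1.68-fold lower. SERPINB5 was called lower as well, and no member was called higher. The 3 calls among 7 members stand against 8.17% of all genes tested (4.9% higher, 3.27% lower), and the groups did not overlap for any of the 7, against 48.1% of all genes without overlap. The median of the 7 was -0.43, and 0.03 over all genes.

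PLAT differed by -0.75 (SE 0.106, limma adjusted p = 0.00578), with log2 signals of 12.11 to 12.39 in Go (n = 2) and 12.91 to 13.07 in enzastaurin (n = 3). SERPINE2 differed by -0.94 (95% interval -1.13 to -0.74, adjusted p = 0.00124). SERPINB5 differed by -0.43 (SE 0.098, adjusted p = 0.0341). Values of the 4 other members, which did not pass, were 0.43 for PLAU (95% interval 0.13 to 0.73, adjusted p = 0.0798), -0.45 for PLAUR (-0.83 to -0.06, adjusted p = 0.141), 0.28 for SERPINB2 (0.11 to 0.45, adjusted p = 0.0512) and 0.40 for F3 (0.11 to 0.68, adjusted p = 0.0872).

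The calls of PLAT and SERPINE2 between the compounds remained when any single array was left out. The SERPINB5 call ended with the slide as a block, which here rests on the same contrast as leaving out Go 1 (adjusted p = 0.0517 under both), and without Go 2 (0.0797), any enzastaurin array (0.108 to 0.122) or control 2 (0.0716). When every probe was tested by itself neither SERPINB5 probe passed, with differences of -0.43 for the brighter (adjusted p = 0.0522) and -0.32 for the second (0.0603). Without Go 2 the difference of PLAU was 0.65. PLAUR was called lower in Go with the slide as a block (-0.73, adjusted p = 0.0283). SERPINB2 was called higher in Go in 5 of 18 alternatives. These were arrays scaled to the 75th percentile (0.35, adjusted p = 0.0335) or to the median (0.29, 0.0483), and no filter on dim probes (0.28, 0.0292). The others were the mean of the probes of a gene (0.28, 0.0365) and leaving out control 3 (0.28, 0.0417).

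Go is the treatment found on both slides, so each Go array could be set against the 3 arrays it shares a slide with. Each of these sets holds 1 Go array, so the values carry no test. On the first slide, Go 1 minus the mean of the controls was 0.94 for F3, -0.44 for PLAUR, -0.41 for SERPINE2, -0.26 for SERPINB2, -0.24 for SERPINB5, -0.12 for PLAU and -0.03 for PLAT. Go 1 lay outside the range of the controls for all of these except PLAT. On the second slide, Go 2 minus the mean of the enzastaurin arrays was -0.98 for SERPINE2, -0.89 for PLAT, -0.73 for PLAUR, -0.48 for SERPINB5, 0.22 for PLAU, 0.26 for SERPINB2 and 0.39 for F3. Go 2 lay outside the range of the enzastaurin arrays for all 7. Go 2 minus Go 1 was -0.01 for F3, -0.03 for SERPINB2 and -0.09 for SERPINE2, but -0.56 for PLAUR, -0.43 for PLAU and -0.28 for PLAT.

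The genes that act around the members were counted from lists by role. The first list, named for plasminogen activation and cell surface binding, also holds inhibitors, other proteases, integrins and the matrix protein EFEMP1. Of its 30 genes 21 were tested. Over all genes tested, 11.6% were higher and 20.1% lower in Go against control. There 1 of the 21 was higher, 3 were lower and 17 did not pass (median -0.23). The falls were the lysosomal protease CTSB (-0.75, adjusted p = 0.022; 0.17, adjusted p = 0.374, as the mean of its probes), and the integrin subunits ITGB5 (-0.71, adjusted p = 0.00288) and ITGA5 (-0.67, adjusted p = 0.017). The membrane-anchored serine protease prostasin, PRSS8, was higher (0.33, adjusted p = 0.0483). In enzastaurin against control 4 were higher, 8 lower and 9 did not pass (median -0.20), against 18.1% higher and 36.8% lower over all genes. Named by size, ITGB5 was lower (-0.67, adjusted p = 0.000322), the matrix protein EFEMP1 was lower (-0.58, adjusted p = 0.000569) and the lysosomal protease CTSL was higher (0.53, adjusted p = 0.00176). CTSB (-0.46, adjusted p = 0.0489) and ITGA5 (-0.46, adjusted p = 0.0207) were also among the 8 lower. The contact-phase protease KLKB1 was above background on 0 of 3 enzastaurin arrays and on 3 of 3 control arrays, which gives at least 1.21-fold lower as a bound. Its log2 means were 6.05 in enzastaurin and 6.57 in control. KLKB1 is counted among the 8 lower, although of these groups it was above background in control alone. ITGB6, counted among the 4 higher, was also dim, with log2 means of 6.43 in enzastaurin and 6.12 in control.

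In Go against enzastaurin 2 of these 21 genes were higher and 2 lower, and 17 did not pass (median -0.06). Of all genes 4.9% were higher and 3.27% lower. PRSS8 (0.48, adjusted p = 0.0333) and EFEMP1 (0.35, adjusted p = 0.0353) were higher, and the lipoprotein receptor VLDLR (-0.43, adjusted p = 0.0352) and CTSL (-0.40, adjusted p = 0.0479) were lower. None of these 4 calls remained when any one of the enzastaurin arrays was left out, with adjusted p-values of 0.0714 to 0.147. With the slide as a block PRSS8 (adjusted p = 0.109), EFEMP1 (0.107) and CTSL (0.0517) did not pass.

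Coagulation proteins downstream of tissue factor were mostly out of reach, with 7 of 20 genes tested. F7, F10 and F5, which encode the ligand, the substrate and the cofactor in the steps after tissue factor, were not above background on the 2 arrays required. In Go against control 2 of the 7 were lower, 0 higher and 5 did not pass (median -0.24): GAS6, a vitamin K-dependent ligand of TAM receptors (-0.64, adjusted p = 0.0357), and VKORC1, which recycles vitamin K (-0.36, adjusted p = 0.027). Over all genes 20.1% were lower in Go against control. In enzastaurin against control 1 was higher, 5 lower and 1 did not pass (median -0.49), against 18.1% higher and 36.8% lower over all genes. The 1 higher, PROS1, was dim, with log2 means of 6.46 in enzastaurin and 6.03 in control. So was F2, 1 of the 5 lower, at 6.25 and 6.56. The brighter TFPI probe, above background on no array, had 6.25 and 6.24. The falls included the thrombin receptor thrombomodulin, THBD (-0.68, adjusted p = 0.000805), GAS6 (-0.62, adjusted p = 0.0157), the gamma-glutamyl carboxylase GGCX (-0.55, adjusted p = 0.00108) and VKORC1 (-0.49, adjusted p = 0.00231). GAS6 turned to 0.13 with the slide as a block (adjusted p = 0.68). Without normalisation between arrays 2 of the 7 were higher and 0 lower, with THBD at -0.16 and VKORC1 at 0.03. Over all genes 5016 of 12909 were then called, 82.5% of them higher. THBD opposes tissue factor by turning thrombin towards protein C. Its log2 signals were 10.31 and 10.38 in Go, 9.97, 10.05 and 9.90 in enzastaurin, and 10.84, 10.61 and 10.52 in control, with no overlap between groups. None of the 7 passed in Go against enzastaurin (median 0.12), where only 8.17% of all genes passed. Of the 4 protease-activated receptors only F2RL1 was tested, and it was lower in Go than in control (-0.48, SE 0.161, adjusted p = 0.04998), a call kept in 4 of 18 alternatives and lost without any single array other than Go 1. In enzastaurin against control it differed by -0.35 and in Go against enzastaurin by -0.13, neither of which passed.

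Of 18 other serpins 13 were tested. In Go against control 1 was higher, 5 lower and 7 did not pass (median -0.29), where 20.1% of all genes were lower. In enzastaurin against control 1 was higher, 8 lower and 4 did not pass (median -0.33), where 36.8% of all genes were lower. Without normalisation between arrays 2 were higher and 2 lower, where 5016 of all 12909 genes were called, 82.5% of them higher. SERPINB3 and SERPINB4, the squamous cell carcinoma antigens, differed by -0.95 (adjusted p = 0.00495) and -1.04 (0.00861) in Go, and by -1.08 (0.000366) and -0.81 (0.00334) in enzastaurin. They are near-identical copies, so their probes may share signal. SERPINA3, alpha-1-antichymotrypsin, differed by -0.70 in Go (adjusted p = 0.0163) and by -1.25 in enzastaurin (0.000405). SERPINB9, the granzyme B inhibitor, was higher in Go (0.57, adjusted p = 0.0246) and in enzastaurin (0.41, adjusted p = 0.0311). SERPINB7 was lower in enzastaurin (-0.52, adjusted p = 0.00259). None of the 13 passed in Go against enzastaurin (median 0.02), where only 8.17% of all genes passed. Of 9 other Kunitz-type inhibitors 4 were tested. None passed in Go against control (median -0.18) or in Go against enzastaurin (median 0.10). Of all genes 31.7% and 8.17% passed in these comparisons. SPINT2 (-0.32, adjusted p = 0.00467) and APLP2 (-0.29, adjusted p = 0.0096) were lower in enzastaurin than in control, a comparison in which 36.8% of all genes were lower.

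With the slide as a block, 824 of all 12909 genes were called in Go against control. There 0 higher and 1 lower of the 21 plasminogen genes (ITGB5) and 0 of the 7 coagulation genes remained. Of the 13 serpins 0 higher and 1 lower (SERPINB3) remained. Leaving out Go 2 rests on the same contrast. Without Go 1 the median of the plasminogen list was -0.31, and that of all genes -0.11. Leaving out control 2 also ended the calls of CTSB, ITGA5, PRSS8, GAS6, VKORC1, SERPINA3 and SERPINB9 in Go against control (adjusted p 0.0596 to 0.101), and leaving out control 1 those of CTSB, PRSS8, GAS6, VKORC1 and SERPINB9 (0.0619 to 0.119). PRSS8 kept its call against control in 7 of 18 alternatives, GAS6 in 8 and VKORC1 in 9. In enzastaurin against control, the slide as a block left 0 higher and 1 lower of the 21 plasminogen genes (ITGB5) and none of the coagulation genes, other serpins or Kunitz-type inhibitors. Over all genes it left 553 of 12909. The GAS6 call there also ended without enzastaurin 2, control 1 or control 2 (adjusted p 0.0528 to 0.0552).

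**Figure D4:**
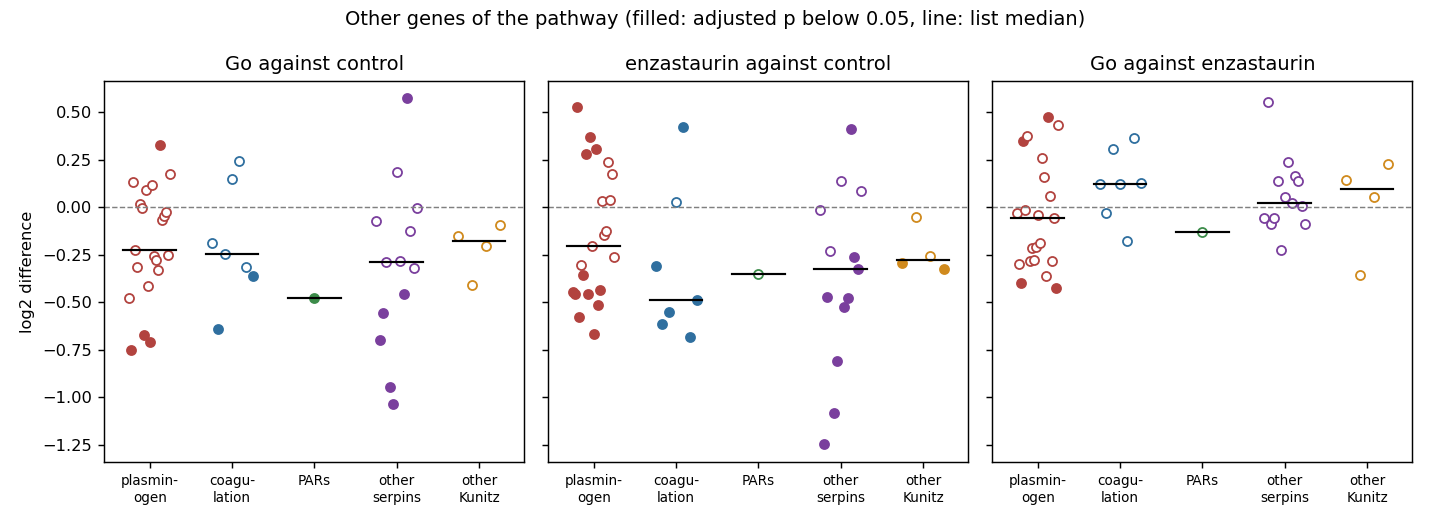
Log2 difference (y axis) of each tested gene of 5 lists (x axis): plasminogen activation and cell surface binding, coagulation downstream of tissue factor, protease-activated receptors (PARs), other serpins, and other Kunitz-type inhibitors. Filled points passed an adjusted p of 0.05 in limma, and lines are list medians. The lowest points against control are serpins, down to -1.04 for SERPINB4 in Go and -1.25 for SERPINA3 in enzastaurin. No coagulation gene or serpin is filled in Go against enzastaurin, where 8.17% of all genes passed.

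The plot of the pathway lists shows medians below 0 against control in all 5 lists for both compounds, where the median of all genes was also below 0 (-0.10 for Go and -0.14 for enzastaurin). The median of the 21 plasminogen genes in enzastaurin against control was 0.02 with the slide as a block and 0.26 without normalisation between arrays (8 higher, 1 lower). Over all genes the latter setting had a median of 0.24, with 5016 of 12909 called, 82.5% of them higher. Without that normalisation the list medians also turned above 0 for plasminogen genes (0.06) and Kunitz-type inhibitors (0.14) in Go, and for F2RL1 (0.07), other serpins (0.08) and Kunitz-type inhibitors (0.24) in enzastaurin. In Go against enzastaurin the median of the 21 plasminogen genes was -0.06 as reported and 0.04 without Go 2. With arrays scaled to the median it was -0.15 (0 higher, 5 lower). There 1087 of all 12909 genes were called, 37.6% of them higher.

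For each member the genes with the most similar course over the 8 arrays were looked up by Pearson's r across arrays, as a description with no test. The arrays share slides and treatment groups, and with so few of them many genes reach high values. PLAU was closest to the kinase gene PLK3 (r = 0.992). PLAUR was closest to EI24 (r = 0.992) and then to the ubiquitin protease gene USP34. PLAT was closest to NREP (r = 0.9899) and the sialidase gene NEU1 (r = 0.988), and SERPINE2 to PLEK2 (r = 0.993) and the metalloprotease gene TLL2 (r = 0.989). SERPINB2 was closest to TRIM11 (r = 0.998) and DDB1 (r = 0.997), and SERPINB5 to MCUB (r = 0.980) and PFKFB4 (r = 0.968). F3 was closest to ATF3, a stress-induced transcription factor gene (r = 0.994), and to the sodium pump subunit gene ATP1B1 (r = 0.988).

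**Figure D5:**
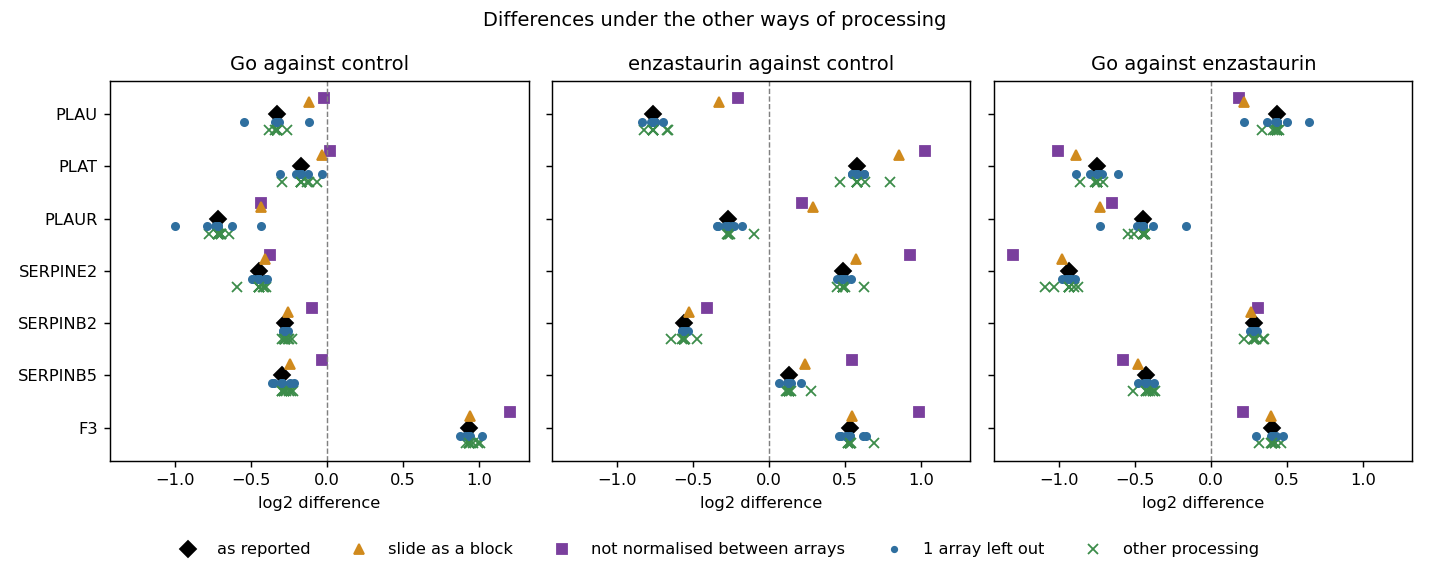
Log2 difference (x axis) of each of the 7 members in the 3 comparisons as reported (diamonds), with the slide as a block (triangles), without normalisation between arrays (squares), with 1 array left out (dots) and under the other settings (crosses). The values of F3 in Go against control span 0.88 to 1.2, and those of SERPINE2 in Go against enzastaurin span -1.30 to -0.87.

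Over all settings plotted there, 4 results kept both their direction and their call: F3 in Go against control (adjusted p 0.00103 to 0.0289), PLAT in enzastaurin against control (0.000377 to 0.0277), and PLAT (0.00273 to 0.0348) and SERPINE2 (0.000688 to 0.0116) in Go against enzastaurin.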

How the data were processed

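The 8 arrays were 1-colour, hybridised with Cy3-labelled cDNA per the labels. Per the file headers, the scanner tables hold the intensity of each spot's foreground and local background, a signal-to-noise score, the percent of saturated pixels and spot positions, none of them normalised, in 1 channel named for a longer wavelength than the dye. The deposited value table of the authors holds background-subtracted intensity with a floor of 0.5 and no normalisation between arrays, as judged from its values. What the authors used for scanning and subtraction is not given in the sources used here.

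Row for row, the probe names of the scanner tables sit in reverse order of the spots. Turned round, they gave a rank correlation of 0.990 to 0.994 with the value table across probes, against 0.007 to 0.013 as deposited, and were used so. Intensities were background-corrected (normexp, offset 50), quantile normalised, and averaged over spots on the log2 scale; each gene was taken from its brightest probe by mean level. Probes were named by RefSeq accession (23434), current symbol (2317), older symbol (1038) or the file's name (748), and 13463 were left without a symbol. Genes were tested in limma 3.58.1 (R 4.3.3) with the 3 groups in 1 fit (5 residual and 3.7 prior degrees of freedom) and Benjamini-Hochberg adjustment over 12909 genes at 0.05, and the procedure was tested on simulated data. With so few arrays, their number limits the precision. The slide was inferred from spot positions (by mean horizontal position, the nearest arrays of the slides are 25.6 µm apart).

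The members, the gene lists and the alternatives were chosen with earlier results of these data known. All members are named whether or not they passed, and from each list up to 4 called genes by size in each comparison. Further genes are given where they bear on a count or were named in another comparison.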

Additional observations from a re-analysis of the deposited data

How the results depend on the processing

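The 21 differences of the 7 members were recomputed under 18 alternatives, 1 of which, the value table without normalisation between arrays, was chosen after seeing the data. Of the values 316 kept direction and side of the threshold, 45 lost the call, 14 gained one and 3 turned in sign. Those were PLAT in Go against control (0.0189) and PLAUR in enzastaurin against control (0.22) without normalisation, and PLAUR in enzastaurin against control with the slide as a block (0.29).

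The 5 members called in Go against control became 3 with the value table, 1 without its normalisation, 1 with the slide as a block and 1 to 5 with an array left out. The 5 called in enzastaurin against control became 1 with the slide as a block and 5 to 6 with an array left out, and the 3 called in Go against enzastaurin stayed at 2 to 4.

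Over all genes, 4098 were called in Go against control, against 824 with the slide as a block, 1804 without normalisation, 7349 of 24772 probes tested singly, and 824 to 5578 with an array left out. In enzastaurin against control 7095 became 553 with the slide as a block, 13033 probes, and 5398 to 7783 with an array left out. In Go against enzastaurin 1055 became 288 without normalisation and 246 to 1706 with an array left out. Of the calls, 36.6%, 33% and 60% were higher in these comparisons, and 48.5%, 48.6% and 37.6% with arrays scaled to the median. Without normalisation the shares were 83.2%, 82.5% and 23.3%, and the medians of all genes 0.10, 0.24 and -0.12. Causes were not tested.

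Same-numbered arrays correlated by -0.145 to 0.151 in their deviations from the group means, and differently numbered arrays by -0.174 to 0.198. The deviations of the 2 Go arrays mirror each other, so these values cannot settle whether the replicate numbers in the labels pair the arrays. With the replicate number as a block, 4555, 6985 and 528 genes were called, and 5, 6 and 2 members. The low signal of SERPINB2 and the 2 Go arrays, 1 on each slide, limit these comparisons.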
